A study of Mus musculus with 4 samples.

Results

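The DLG and MAGI proteins include scaffolds of the postsynaptic density. The splicing of their 7 genes (*Dlg1*, *Dlg2*, *Dlg3*, *Dlg4*, *Magi1*, *Magi2* and *Magi3*) was followed in mouse brain with and without the splicing regulator PTBP2. The unit is the exon trio, a middle exon with its upstream and downstream neighbors, and the members were all trios whose chromosome, strand, middle exon length and both intron lengths matched a transcript of these genes in the GENCODE mouse annotation (release M21). Of 218362 trios in the cassette classes, 223 were named for the 7 genes, and 209 of these, covering 155 distinct middle exons, could be tested, with a minimum of 20 junction reads in each library of a stage and a usable inclusion level. *Dlg1* had 41 such trios, *Dlg2* 28, *Dlg3* 30, *Dlg4* 22, *Magi1* 43, *Magi2* 22 and *Magi3* 23. Of the other 14 trios, 6 were under the read minimum and 8 had an inclusion level listed at 0 although no read skipped the exon.

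RNAseq was carried out on 4 libraries, 1 for each group, all from mice of the "Mixed C56Bl/6:129S2 background". At embryonic day 18 (E18), whole brain of *Ptbp2*-NesKO embryos, with loxP sites on both *Ptbp2* alleles and Cre driven by the nestin promoter in neuronal progenitors, was set against brain of wild-type littermates, and each library pooled 2 brains. At postnatal day 1 (P1), the cortex of 1 *Ptbp2*-EmxKO pup, with the same floxed alleles and Cre driven by *Emx1*, was set against the cortex of 1 littermate labelled wild type. *Emx1*-Cre acts in the dorsal forebrain lineage, so other cells of the cortex keep PTBP2. Stage, tissue, Cre line and the strand-specific preparation used at P1 all changed together, so their parts in any difference between the stages cannot be told apart.

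The floxed exon 4 of *Ptbp2* checked the labels. It was skipped in 100% of reads in the NesKO (95% Wilson interval, 98.5 to 100%), in 0.225% in the E18 wild type (0.0398 to 1.26%), in 82.6% in the EmxKO (79.9 to 85.1%) and in 31.5% in the P1 library labelled wild type (29.5 to 33.7%). The last value stands apart from the E18 wild type, so that library is called "labelled wild type" throughout, and every P1 difference given here is against it. Reads on distinct splice junctions came to 48239933 in the NesKO, 50074568 in the E18 wild type, 82960442 in the EmxKO and 83241630 in the labelled wild type. With 1 library for each group there is no replicate error. Fisher's exact test on the reads compares libraries and not conditions, and all intervals cover counting error only.

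DLG proteins are membrane-associated guanylate kinases, in which PDZ domains, an SH3 domain and a guanylate kinase-like domain hold glutamate receptors and adhesion molecules at excitatory synapses. *Dlg4* encodes PSD-95, *Dlg1* SAP97, *Dlg2* PSD-93 and *Dlg3* SAP102. MAGI proteins have the guanylate kinase-like domain near the amino end, followed by WW domains and a row of PDZ domains, and *Magi2* encodes the synaptic form S-SCAM. PTBP2 binds pyrimidine-rich RNA and often represses the exons nearby. Skipping of *Dlg4* exon 18 shifts the frame, and messages with a stop codon well before the last junction are substrates of nonsense-mediated decay.

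The exons that carried the largest differences are shown first, each on its sense strand, 5′ to 3′, from the GENCODE transcripts with GRCm38 coordinates. The next-to-last exon of *Magi1* and *Magi2* has 89 nt in both genes. It is exon 24 of 25 in Magi1-208 and exon 22 of 23 in Magi2-201, and capitals mark the 52 of 89 positions (58.4%) with the same base in both.
Magi1 89-nt exon (chr6:93680789-93680877, minus strand): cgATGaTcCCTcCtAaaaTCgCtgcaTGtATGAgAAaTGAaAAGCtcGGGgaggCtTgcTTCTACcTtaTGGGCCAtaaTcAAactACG
Magi2 89-nt exon (chr5:20661264-20661352, plus strand): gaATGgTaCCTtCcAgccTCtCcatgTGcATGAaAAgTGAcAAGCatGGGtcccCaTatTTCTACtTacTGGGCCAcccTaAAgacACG
After either exon the last exon is read in another frame and a stop codon, in capitals, is met at its base 55.
Magi1 last exon, first 57 bases (chr6:93678946-93679002, minus strand): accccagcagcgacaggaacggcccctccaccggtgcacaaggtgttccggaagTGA
Magi2 last exon, first 57 bases (chr5:20702070-20702126, plus strand): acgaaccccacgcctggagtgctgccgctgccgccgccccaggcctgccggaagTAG
In *Magi3* the exon that corresponds by position has 91 nt. It was identical to the *Magi1* and *Magi2* exons at 52.0% and 54.8% of aligned bases, where those of *Magi1* and *Magi2* were identical at 61.5%. This *Magi3* exon, exon 21 of 22 in Magi3-201, holds its own stop codon at base 48.
Magi3 91-nt exon, first 50 bases (chr3:104016643-104016692, minus strand): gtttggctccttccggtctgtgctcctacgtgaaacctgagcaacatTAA
In each of the 3 genes the form without the exon is therefore the longer one. Reading Magi1-208 with and without it gave 1280 and 1483 codons, a difference of 203. The counts were 1275 and 1414 codons in *Magi2*, and 1126 and 1476 in *Magi3*.

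*Dlg4* shows the opposite case. Exon 18 of Dlg4-203 has 110 nt, and without it a TAA stop codon is met at base 10 of exon 19, which cuts the reading frame from 724 to 625 codons and ends 80 nt before the last exon junction. Capitals mark the only TCTT, a core of pyrimidine motifs, in exon 18, and the stop codon in exon 19.
Dlg4 exon 18 (chr11:70043658-70043767, plus strand): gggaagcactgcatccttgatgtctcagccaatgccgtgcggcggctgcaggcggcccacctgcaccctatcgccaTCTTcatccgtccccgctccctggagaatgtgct
Dlg4 exon 19, first 32 bases (chr11:70044276-70044307, plus strand): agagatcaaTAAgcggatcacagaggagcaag
TCTT, searched on the sense strand, was in 38.8% of the 1349 annotated internal exons of 110 nt. The *Magi1* and *Magi2* 89-nt exons held neither TCTT nor TCTCT, which were in 31.1% and 10.5% of 1185 internal exons of that length. The *Magi3* 91-nt exon held 2 TCTT, both after the bases printed, and 32.9% of 1247 internal exons of its length held at least 1. Intron sequence was not analysed here.

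Of all scaffold exons tested, that of *Magi1* moved most in both knockouts, from a minority to a majority of messages. *Dlg4* exon 18 rose by a few points from an already high level among the messages present. The other scaffold exons did not pass the test. To count them, PSI (percent spliced in), the inclusion level deposited for each trio, was compared between the libraries of a stage. In the E18 brain, 3 of 15 scaffold trios labelled CA-CA, read here as a middle exon that the database holds as a cassette exon, differed by at least 10 PSI points, against 11.6% of all CA-CA trios. Of those labelled CA-CS, read here as constitutive, 1 of 185 did, against 1.62% of all. At an adjusted p below 0.05 by Fisher's exact test, adjusted by the Benjamini-Hochberg method across both classes, 2 of 200 scaffold trios passed, against 0.219% of all trios, and 1 met both criteria, against 0.145%. Of the 200 trios, 171 differed by less than 1 point. The median absolute difference was 0 points, against 1.7 over all CA-CA trios and 0 over all CA-CS trios.

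In the P1 cortex, 3 of 17 CA-CA trios and 3 of 192 CA-CS trios differed by at least 10 points, against 9.88% and 0.848% of all trios of these classes. In all, 2 of 209 trios had an adjusted p below 0.05, against 0.442% of all trios, and 1 trio met both criteria, against 0.191%. The 2 exons that passed the test were the same at both stages, the *Magi1* 89-nt exon and *Dlg4* exon 18, and both were higher in the knockout. Of the 209 trios, 179 differed by less than 1 point, and the median absolute difference was again 0.

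**Figure D1:**
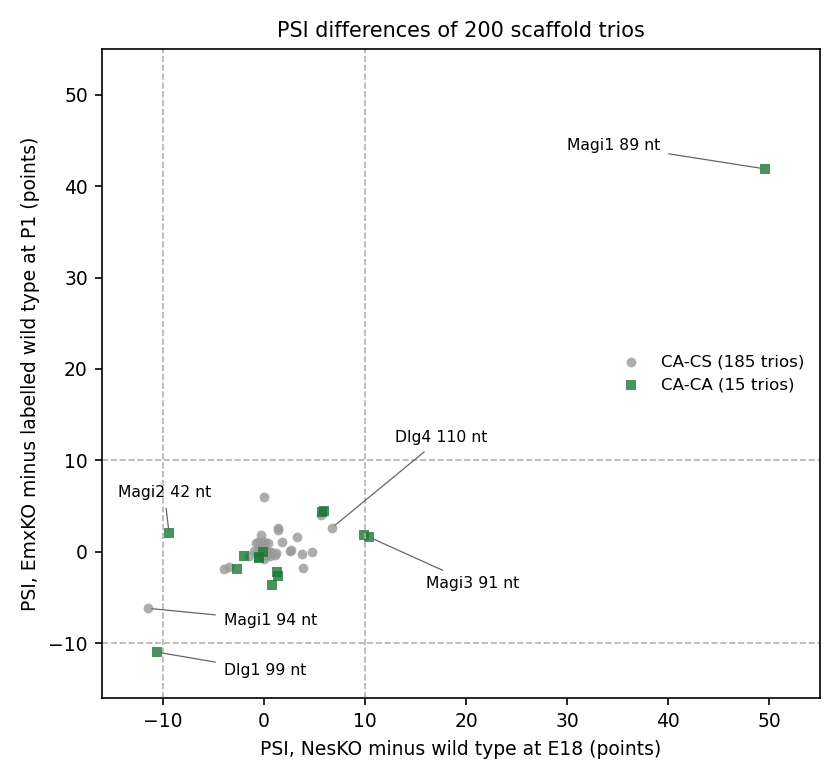
PSI difference of each of the 200 scaffold trios measured at both stages, NesKO minus wild type at E18 on the x axis and EmxKO minus labelled wild type at P1 on the y axis, in PSI points, with dashed lines at 10 points. Squares are CA-CA trios and circles CA-CS trios; the Magi1 89-nt exon lies at 49.6 and 41.9 points, far from the other trios, most of which lie near 0.

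The *Magi1* 89-nt exon (chromosome 6, 93630783 to 93630871 in mm9, coding) had the largest difference among the scaffold trios at both stages. Its PSI was 80.6 in the NesKO and 31.0 in the E18 wild type, and 81.5 in the EmxKO and 39.6 in the labelled wild type. Both knockout libraries were high and both wild-type libraries low, and the Wilson intervals of the reads did not overlap within a stage. In the NesKO, 79 reads joined the exon upstream, 76 joined it downstream and 24 skipped it, while in the wild type 51, 24 and 102 did. In the EmxKO the reads were 74, 90 and 22, and in the labelled wild type 41, 54 and 74.

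The share of junction reads that included the *Magi1* exon was higher by 49.3 points in the NesKO (95% Newcombe interval, 37.3 to 59.1; adjusted p = 3.66e-11, Fisher's exact test). In the EmxKO it was higher by 39.5 points (27.0 to 50.1; adjusted p = 1.44e-06, Fisher's exact test). These effects did not pass a test of their difference (adjusted p = 1, Wald chi-square test of the log odds ratios). Between the wild-type libraries of the stages the PSI differed by 8.6 points (adjusted p = 1, Fisher's exact test), and this passed with the downstream junction alone as the inclusion count (adjusted p = 0.00559, Fisher's exact test).

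The corresponding exons of the other MAGI genes were mostly included in every library. The *Magi2* 89-nt exon (chromosome 5, 20167082 to 20167170) stood at a PSI of 95.5 in NesKO brain, 91.7 in the E18 wild type, 87.8 in the EmxKO and 88.0 in the labelled wild type. Its intervals overlapped at both stages, and it was skipped by 6, 10, 60 and 36 reads in that order. The inclusion share of junction reads was higher by 2.8 points in the NesKO (95% Newcombe interval, -3.9 to 9.5) and lower in the EmxKO, with a difference of -2.7 points (-7.7 to 2.6).

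The *Magi3* 91-nt exon (chromosome 3, 103820525 to 103820615) was in 2 trios that share its reads. In the trio with the most reads its PSI was 99.4 in the NesKO, 89.5 in the E18 wild type, 96.4 in the EmxKO and 94.6 in the labelled wild type. The E18 wild type was the lowest, with 8 skipping reads against 1 in the NesKO, and the E18 difference of 9.9 points (10.4 in the other trio) did not pass the test (adjusted p = 1, Fisher's exact test). At P1 the inclusion share of junction reads differed by 0.1 points (95% Newcombe interval, -5.4 to 4.1).

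**Figure D2:**
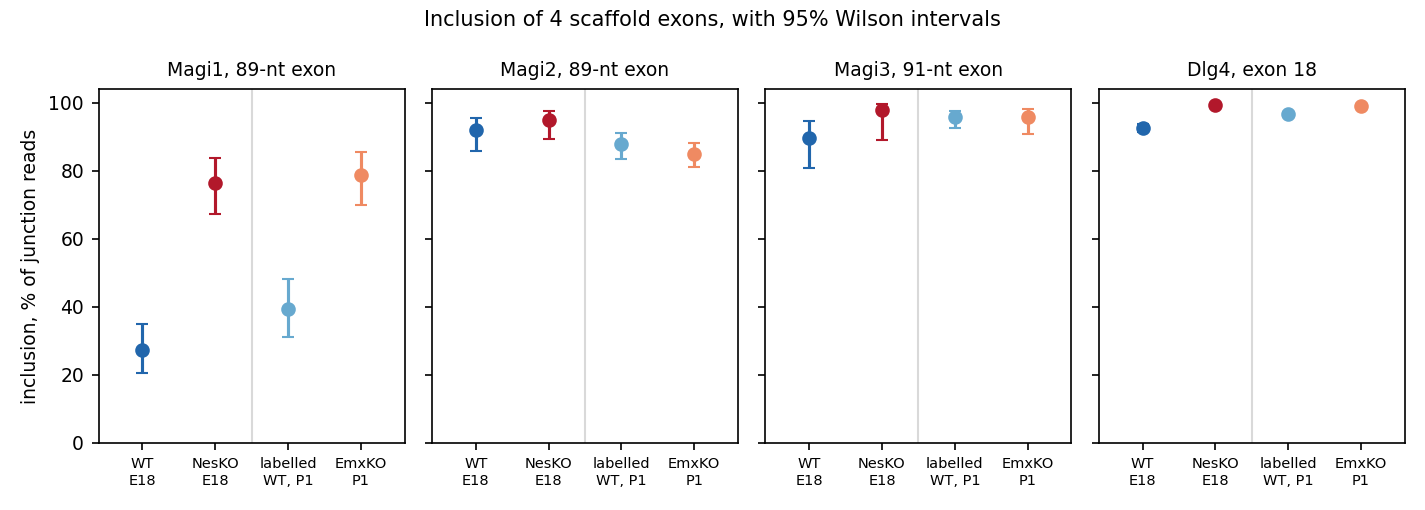
Inclusion of the carboxy-terminal exons of the MAGI genes and of Dlg4 exon 18 in each library, as the percent of junction reads that include the exon; points are the 4 single libraries and bars 95% Wilson intervals. The Magi1 exon is at 27.1 and 39.3% in the wild-type libraries and at 76.5 and 78.8% in the knockouts, while the other exons are at 85.0% or higher in every library.

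*Dlg4* exon 18 (chromosome 11, 69857160 to 69857269 in mm9, coding) was skipped by 14 reads in the NesKO, 155 in the E18 wild type, 48 in the EmxKO and 114 in the labelled wild type. Its PSI was 99.5, 92.8, 98.9 and 96.3 in that order. These values count the messages present, and loss of skipped messages to nonsense-mediated decay would raise them. The part of such decay was not tested. Skipping was lower in each knockout than in the wild-type library of its stage, and the Wilson intervals did not overlap. The PSI was higher by 6.7 points in the NesKO (adjusted p = 1.4e-34, Fisher's exact test) and by 2.6 points in the EmxKO (adjusted p = 1.25e-11, Fisher's exact test). With 1655 to 5250 reads on each inclusion junction the 95% Newcombe intervals of the differences in read share were narrow, from 5.8 to 8.1 points at E18 and from 1.8 to 3.1 points at P1.

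The exon most like exon 18 in each of the other DLG genes also has 110 nt, and the 3 are identical to it at 63.6% (*Dlg1*), 68.2% (*Dlg2*) and 66.7% (*Dlg3*) of aligned bases. Unlike exon 18 they were hardly skipped. The *Dlg1* exon was skipped by 1, 0, 1 and 0 reads in the NesKO, E18 wild type, EmxKO and labelled wild type, the *Dlg2* exon by 0, 0, 2 and 1, and the *Dlg3* exon by 0, 1, 0 and 1. Their PSI was 99.7 or higher in every library, where 99.9 is the highest value the files list.

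The difference between the stages in the exon 18 effect had p = 3.56e-05 in a Wald chi-square test on the reads, but an adjusted p = 0.0542, which missed the threshold. None of the 200 scaffold trios measured in all 4 libraries passed that test, against 0.0624% of all trios, and 3 had an unadjusted p below 0.05. With the smaller of the inclusion junctions as the inclusion count, exon 18 had an adjusted p = 0.042 in the Wald chi-square test and a *Dlg4* 66-nt exon passed as well.

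The remaining exons that reached 10 points in a knockout comparison lay in *Dlg1* and *Magi1*, and none passed Fisher's exact test. The most skipped exon of *Dlg1* (chromosome 16, 31771843 to 31771941, 99 nt, exon 6 of 26 in Dlg1-202) is in frame and gives 927 codons in place of 894. It is shown because both knockouts had a lower value in its cassette trio, and it held none of the motifs searched. Of 1975 internal exons of its length, 30.1% held TCTT and 9.87% TCTCT, so most exons of this length hold neither.
Dlg1 99-nt exon (chr16:31771757-31771855, plus strand): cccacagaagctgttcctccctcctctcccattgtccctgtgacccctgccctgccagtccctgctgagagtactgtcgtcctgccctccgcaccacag
In the CA-CA trio its PSI was 46.1 in the NesKO, 56.7 in the E18 wild type, 49.2 in the EmxKO and 60.2 in the labelled wild type. The intervals of the read shares overlapped at both stages, and the differences of -10.6 and -11.0 points had adjusted p = 1 (Fisher's exact test). In a CA-CS trio with another neighbor, the same exon had the opposite sign at P1, at 97.7 in EmxKO cortex against 82.8 (adjusted p = 0.801 by Fisher's exact test).

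Another pair of *Dlg1* exons reached 10 points at P1 on few reads. A 97-nt exon (31846923 to 31847019) was matched to only 1 transcript, Dlg1-207, which is annotated for nonsense-mediated decay. The exon lies in the 3′ UTR of that transcript, which does not say whether its bases are coding in others. The exon stood at a PSI of 90.1 in the EmxKO and 78.3 in the labelled wild type, from 26 and 43 junction reads. It was below the read minimum at E18. The same exon with an acceptor 3 nt earlier (31846920 to 31847019, 100 nt) was at 99.9 in every library, with no skipping read. The part of the acceptor choice in the value of the 97-nt form was not tested. A 42-nt exon (31853929 to 31853970) had PSI values of 99.9 (EmxKO) and 85.9 (labelled wild type), with 0 and 6 skipping reads (adjusted p = 1, Fisher's exact test). Its downstream junction had no read in any library, so only its upstream junction was measured. In *Magi1*, a 94-nt exon (93636776 to 93636869) gave PSI values of 61.1 (NesKO) and 72.6 (E18 wild type) in 1 trio, and of 99.9 in both libraries in its 3 other trios, which had more reads. The share of junction reads in the first trio was 92.6% and 96.6%, with 9 and 5 skipping reads (adjusted p = 1, Fisher's exact test).

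A 54-nt exon of *Dlg3* (chromosome X, 97966646 to 97966699, exon 2 of 21 in Dlg3-202, in frame) is shown as the least included of the most skipped exons. It held none of the motifs searched, and of 1360 internal exons of its length 16.8% held TCTT and 5.15% TCTCT.
Dlg3 54-nt exon (chrX:100771307-100771360, plus strand): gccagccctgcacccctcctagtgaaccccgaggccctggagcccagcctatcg
Its PSI was 26.2 in the NesKO, 20.5 in the E18 wild type, 29.7 in the EmxKO and 25.4 in the labelled wild type. The knockout library had the higher value at each stage, by 5.7 and 4.3 points, and the intervals of the reads overlapped (adjusted p = 1 at both stages, Fisher's exact test). A 42-nt exon of *Magi2* (chromosome 5, 20049403 to 20049444), chosen after its values were seen, gave PSI values of 83.9 (NesKO) and 93.3 (E18 wild type). The difference of -9.4 points lies just below the 10-point criterion (adjusted p = 1, Fisher's exact test), and at P1 the EmxKO was higher by 2.0 points.

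In *Dlg2*, the exon with the most skipping reads (chromosome 7, 99145676 to 99145831, 156 nt, exon 15 of 28 in Dlg2-217) was nearly always included. It had no skipping read in either E18 library, 5 in the EmxKO and 11 in the labelled wild type, and its PSI was between 98.5 and 99.9.

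**Figure D3:**
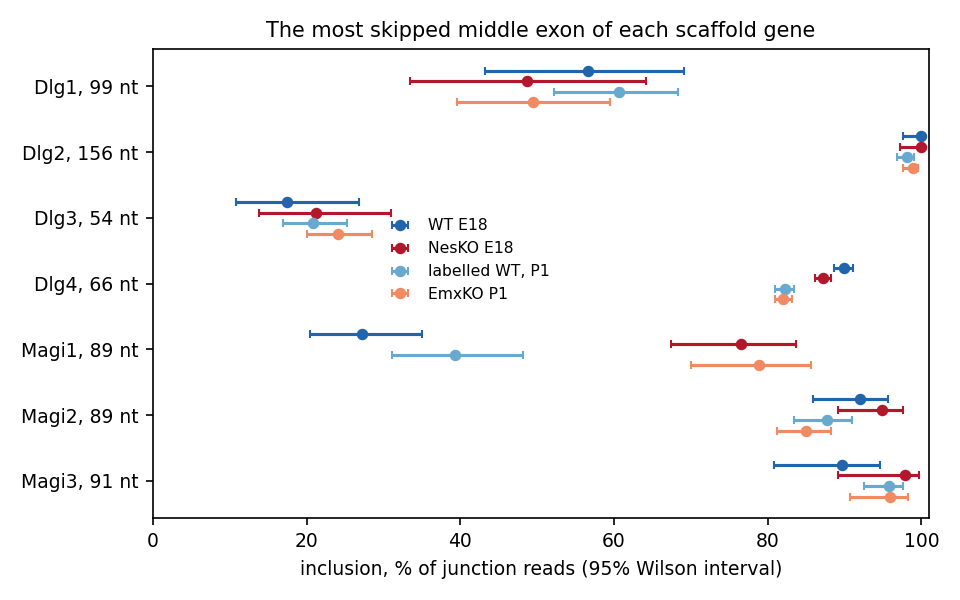
Inclusion of the exon with the most skipping reads in each scaffold gene, as the percent of junction reads on the x axis, with the 4 single libraries in color and 95% Wilson intervals as bars. Only for Magi1 do the intervals of the knockout and the wild-type library stand apart at both stages; the Dlg3 exon is between 17.4 and 24.1% and the Dlg2 exon at 98.2% or higher.

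To ask which scaffold exons differ between the wild-type libraries themselves, the labelled wild-type cortex at P1 was compared with the wild-type brain at E18. Of 15 CA-CA trios, 1 differed by at least 10 points, against 21.7% of all, and of 193 CA-CS trios, 5 did, against 2.72%. By Fisher's exact test 6 of 208 trios had an adjusted p below 0.05, against 1.65% of all, and 1 met both criteria, against 0.75%. All but 1 of the 6 that passed the test were trios of *Dlg4*. Among the 5 CA-CS trios past 10 points, that of the *Magi1* 94-nt exon stood at 72.6 and 97.6, and the others, of *Dlg1*, *Dlg2* and *Dlg4*, had no read on the downstream junction.

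The *Dlg4* trios that differed most hold exon 2, which has a 66-nt form and, through a later splice donor, a 165-nt form, both with a length that keeps the frame. The longer form is shown, with the bases that only it holds in capitals.
Dlg4 165-nt exon 2 (chr11:70026923-70027087, plus strand): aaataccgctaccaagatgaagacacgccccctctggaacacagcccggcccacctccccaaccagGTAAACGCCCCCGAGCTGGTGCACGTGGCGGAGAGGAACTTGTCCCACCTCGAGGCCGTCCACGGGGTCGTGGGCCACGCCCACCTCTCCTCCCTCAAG
The 66-nt form (chromosome 11, 69840425 to 69840490) gave PSI values of 93.6 (E18 wild type) and 87.4 (labelled wild type) in the trio with the most reads. It was skipped by 237 and 663 reads (adjusted p = 4.66e-14, Fisher's exact test). For the 165-nt form (69840425 to 69840589) the PSI was 87.7 and 73.7, a difference of -14.0 points (adjusted p = 3.44e-27, Fisher's exact test). The P1 libraries were the lower pair for both forms. These values rest mostly on the upstream junction, which both forms share. The later donor was also measured by itself, as an alternative donor event of the 99 bases that only the longer form holds. Its PSI was 6.4 in the E18 wild type and 3.5 in the labelled wild type, and 7.9 in the NesKO and 2.9 in the EmxKO.

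In the knockout comparisons exon 2 did not pass the test with adjustment over both classes. With adjustment within each class, 3 scaffold trios passed at E18 in place of 2. The added trio was of *Dlg4*, in which only exon 2 has CA-CA trios. In its trio with the most reads, the 66-nt form stood at 92.1 (NesKO) and 86.9 (EmxKO). These were within 1.5 and 0.5 points of the wild-type library of the stage (adjusted p = 0.472 and 1, Fisher's exact test). The inclusion share of its reads differed by -2.6 points at E18 (95% Newcombe interval, -4.2 to -1.0) and by -0.2 points at P1 (-1.8 to 1.5). On the downstream junction alone, which had 495 to 1346 reads, the differences were -8.76 points at E18 and 2.91 points at P1, the latter with the direction turned. The adjusted p was 0.0584 and 1 in the CA-CS trio of the 66-nt form, and 0.0942 and 0.988 in its CA-CA trio (Fisher's exact test). The 165-nt form was at 85.0 and 71.8, within 2.7 and 1.9 points (adjusted p = 1 at both stages, Fisher's exact test). Its downstream junction had 27 to 57 reads and its upstream junction 2988 to 4692. Both forms start at the same base, so the upstream reads do not tell them apart. These values are therefore no measure of the 165-nt form alone, and those of the 66-nt form that use upstream reads have the same limit. With the smaller inclusion junction, or the downstream one alone, the stage difference of the 165-nt form no longer passed Fisher's exact test.

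*Dlg4* exon 18 was also higher in the labelled wild-type cortex than in the E18 wild-type brain, by 3.5 points (adjusted p = 1.28e-08, Fisher's exact test), the same direction as in the knockouts. The labelled wild type carries *Ptbp2* exon 4 skipping as given above, and the part of that in the stage difference was not tested. The other exons, named like the 165-nt form after their values were seen, with an adjusted p below 0.05 by Fisher's exact test were a *Dlg4* exon of 102 nt (69855683 to 69855784), at 99.7 and 99.9, and a *Magi1* exon of 202 nt (93735439 to 93735640), at 96.6 in the E18 wild type and 90.6 in the labelled wild type (adjusted p = 0.0491). Neither passed with the downstream junction alone, and the *Magi1* exon did not with the smaller inclusion junction either.

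Reads on the distinct junctions of each gene, scaled to 1000000 such reads in the library (RPM), gave its level. These are bulk tissues, in which fewer cells of a type and less RNA per cell cannot be told apart. *Dlg4* had 1528 RPM in the NesKO and 1103 in the E18 wild type, and 1040 in the EmxKO and 765 in the labelled wild type. It was higher in each knockout than in the wild-type library of its stage, 1.39-fold at E18 (95% exact interval, 1.37 to 1.40) and 1.36-fold at P1 (1.35 to 1.37). Of its 23 junctions with enough reads, 22 were higher in the knockout at both stages. The ratios of the other DLG genes were below 1 at both stages.

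*Dlg2* had 80.7 RPM in the NesKO and 115 in the E18 wild type, and 149 in the EmxKO and 209 in the labelled wild type. Its level was lower in each knockout, with a ratio of 0.699 (95% exact interval, 0.671 to 0.728) at E18 and 0.711 (0.694 to 0.727) at P1, and 0 of its 26 junctions with enough reads were higher at either stage. *Dlg1* had 41.5 and 49.8 RPM at E18, and 37.4 in the EmxKO and 66.7 in the labelled wild type, with ratios of 0.833 (0.785 to 0.884) and 0.561 (0.536 to 0.586). *Dlg3* had 102 and 124 at E18 and 169 and 172 at P1, with ratios of 0.820 and 0.980, and its P1 interval included 1.

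Among the MAGI genes, *Magi3* differed most. *Magi3* had 22.9 RPM in the NesKO, 31.4 in the E18 wild type, 34.8 in the EmxKO and 82.5 in the labelled wild type, which was the highest library by far. Its ratio was 0.730 (95% exact interval, 0.675 to 0.789) at E18 and 0.422 (0.403 to 0.440) at P1, and 0 of 21 junctions were higher at P1. *Magi1* had 144 and 166 RPM at E18 and 105 and 106 at P1, knockout first, with ratios of 0.865 (0.838 to 0.893) and 0.983 (0.954 to 1.01). *Magi2* had 65.0 and 70.5 at E18 and 79.5 and 64.2 at P1. It was lower in the NesKO, with a ratio of 0.923 (0.880 to 0.969), and higher in the EmxKO, with 1.24 (1.19 to 1.28).

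None of the 7 genes differed by 1.5-fold or more at E18, where 9.9% of 12588 genes did, and *Dlg1* and *Magi3* did at P1, where 22.8% of 12354 genes did. Summed junction reads of 7 neuronal markers (*Rbfox3*, *Map2*, *Snap25*, *Syt1*, *Stmn2*, *Slc17a7* and *Gad1*) were 1150 and 1501 RPM in the NesKO and E18 wild type and 1517 and 1927 at P1, with 1 of 7 higher in the NesKO and 2 of 7 in the EmxKO. The ratios at P1 were 0.506 for *Snap25*, 0.579 for *Map2* (368 and 636 RPM), 0.863 for *Stmn2*, 0.948 for *Syt1* and 0.989 for *Gad1*. Those of *Slc17a7* and *Rbfox3* were 1.07 and 1.24. The sum was lower in both knockouts, and its part in the lower levels of *Dlg1*, *Dlg2* and *Magi3* was not tested.

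**Figure D4:**
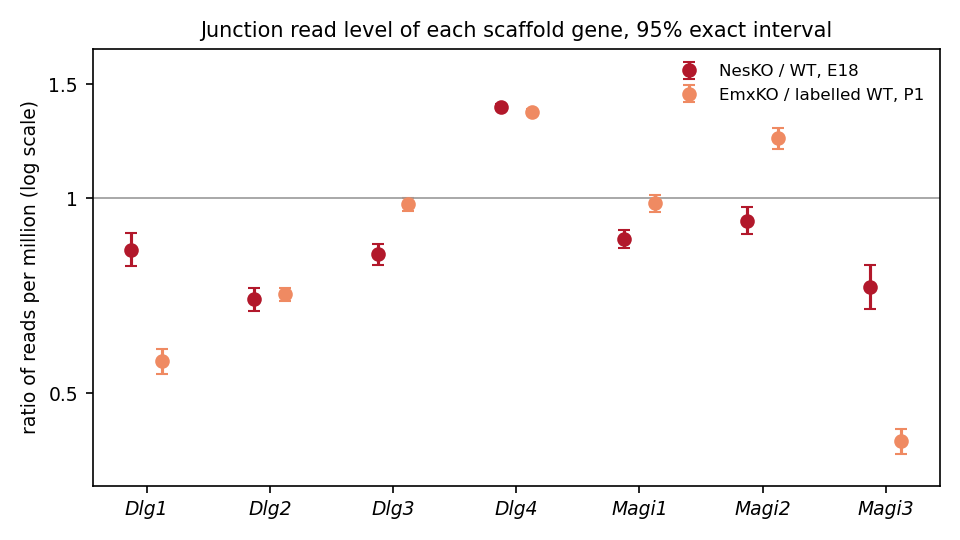
Ratio of junction RPM in the knockout to the wild-type library of the same stage, on a log scale, for each scaffold gene; points are ratios of single libraries and bars 95% exact intervals. Dlg4 lies above 1 at both stages, Dlg1, Dlg2 and Magi3 below 1 at both, and Magi2 on different sides.

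Markers of other cells differed as well. The sum over 6 progenitor genes (*Nes*, *Pax6*, *Hes5*, *Vim*, *Mki67* and *Top2a*) was 598 and 545 RPM at E18 and 298 and 392 at P1, knockout first, with 2 of 6 genes higher in the knockout at each stage. The higher sum at E18 came from *Vim*, at 403 and 339 RPM. The sum over 4 astrocyte genes (*Gfap*, *Aqp4*, *Aldh1l1* and *Slc1a3*) was 294 and 373, then 278 and 254, with 1 of 4 higher in the NesKO and 3 of 4 in the EmxKO. These genes went different ways, with ratios at E18 and P1 of 2.78 and 2.35 for *Gfap*, 0.609 and 0.569 for *Aqp4*, 0.805 and 1.04 for *Aldh1l1*, and 0.484 and 1.03 for *Slc1a3*. The microglial sum, over 3 of 4 listed genes with junctions named here, was higher in both knockouts, as was each of the 3 genes, at 86.2 and 61.4 and then 49.6 and 32.1. Vessel genes, 2 of 3 with junctions, were at 57.2 and 59.7 and then 38.5 and 34.7, with 1 of 2 higher in the NesKO and 2 of 2 in the EmxKO. The part of these differences in the gene levels was not tested.

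Among 42 related genes of postsynaptic or junctional scaffolds, such as the SHANK, Homer and MPP families, 1 of 882 trios met both criteria at E18. At P1, 2 of 876 did. Each was higher in the knockout, as was the trio at E18. For all trios the shares were 0.0977% higher and 0.0469% lower at E18, and 0.148% and 0.043% at P1. The exon called at both stages was an 84-nt exon of *Scrib* (chromosome 15, 75879887 to 75879970), a scaffold with PDZ domains that sets cell polarity. Its PSI was 78.6 in the NesKO, 34.7 in the E18 wild type, 75.8 in the EmxKO and 38.3 in the labelled wild type, with both knockouts high (adjusted p = 5.91e-21 and 2.18e-24, Fisher's exact test). The other exon called at P1 was a 93-nt exon of *Kalrn*, which acts in dendritic spines, higher by 10.5 points (adjusted p = 0.000251, Fisher's exact test).

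Of the 155 tested middle exons of the scaffold genes, 59 have a length that is a multiple of 3. Among the 14 with a CA-CA trio, 10 do. Neither the *Magi1* 89-nt exon nor *Dlg4* exon 18 has such a length. In 85 of the 209 tested trios no library had a skipping read. In 19 of the 209, 1 inclusion junction had no read in any library, and a PSI difference in such a trio rests on 1 junction and on exon coverage. A 162-nt exon of *Dlg2* (chromosome 7, 98598264 to 98598425), named after its values were seen, was of this kind, at 51.9 in the E18 wild type and 91.0 in the labelled wild type, with 2 skipping reads and 1 (adjusted p = 1, Fisher's exact test).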

How the data were processed

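RNAseq was of polyadenylated RNA, sequenced as paired reads of 100 nt, in 4 libraries with 1 in each group. The deposited tables are SpliceTrap output, on mm9 per the labels. The submitters' processing notes also name CASAVA, TopHat and Cufflinks, with versions not given in the sources used here. For each trio the authors deposited read counts on the upstream, downstream and skipping junctions, exon coverage as signal, and inclusion ratios as a fraction before and after the tool's correction. The corrected fraction, in percent, is the PSI used here, and the highest value listed is 99.9.

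Trios were named by chromosome, strand, exon length and both intron lengths from GENCODE M21, whose sequences are on GRCm38. No coordinates were converted. Exon ends were recovered from the listed start and the exon length. Each library of a stage needed at least 20 junction reads for a trio to be tested. The two-sided Fisher's exact test compared the rounded mean of the inclusion junctions and the skipping reads, with Benjamini-Hochberg adjustment over all trios of both classes. Differences of effect between stages were tested by a Wald chi-square test of log odds ratios with 0.5 added to each count. Gene levels are junction reads per 1000000 distinct-junction reads, for genes with at least 100 reads. Intervals at 95% are Wilson for shares, Newcombe for differences and exact binomial for ratios.

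Exons were named if they differed by at least 10 points or had an adjusted p below 0.05 in a knockout comparison, or had the most skipping reads of their gene. The members and lists were chosen with earlier results of these data known. Alternatives varied the inclusion measure, read minimum, threshold, trios per exon, naming and adjustment. The tests were checked on simulated data. Python 3.11.15, numpy 2.4.6, pandas 2.3.3, scipy 1.17.1 and matplotlib 3.10.9 were used. Intron sequences were not analysed here. The sum of 1 list of marker genes is not reported here.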

Additional observations from a re-analysis of the deposited data

Results flagged for a closer look

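An event outside the cassette classes differed at P1. The alternative donor event of *Dlg1* with a variable part of 45 nt (chromosome 16, 31797052 to 31797096 in mm9) had a PSI of 85.9 in the EmxKO and 75.5 in the labelled wild type, a difference of 10.4 points. It was at 87.9 in the NesKO and 87.4 in the E18 wild type, so the labelled wild type was the low library. It was the 1 of 10 such events tested in the scaffold genes at P1 that reached 10 points, against 5.83% of 6952 events of these classes (alternative acceptors, alternative donors and retained introns) over all genes. At E18, 0 of 10 did, against 8.72% of 6733.

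The junction read level of *Magi2* lay on different sides of 1 in the knockouts, with a ratio of 0.923 at E18 and 1.24 at P1. Both intervals, which cover counting error only, left out 1. The difference between the stages was not tested, and stage, tissue, Cre line and library preparation cannot be told apart in it.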

How the results depend on the processing

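No paired analysis was possible because each group has 1 library, and for the same reason no library could be left out. Of 278 recomputed values, 27 moved, which for a count means by over 1.5 times, for a PSI difference by more than the mean arm of its interval, and for a gene level or *Ptbp2* exon 4 out of its interval. The 278 values were 123 counts or *Ptbp2* exon 4 shares, which cannot change sign, 127 PSI differences and 28 gene levels. For each named exon the PSI difference recomputed was that of its trio with the most reads. The CA-CS trio of the *Dlg1* 99-nt exon, with the opposite sign at P1, was therefore not among them. No gene level whose interval left out 1 crossed 1, and no recomputed PSI difference that passed a criterion changed sign. Of 127 PSI differences of named exons, 6 did, in 4 differences of at most 3.3 points that passed none. These were the *Dlg2* 162-nt exon at E18 (3.3, to -5.91 from junction reads and -3.14 from the upstream junction) and at P1 (1.6, to -1.23 and -0.623), and, from the downstream junction, the *Dlg4* 66-nt exon at P1 (-0.5 to 2.91) and the *Magi3* 91-nt exon at P1 (1.8 to -0.271). At E18 the 4 trios at 10 points became 2 with PSI from junction reads, 2 with 1 trio per exon, 1 at 20 points and 10 at 5 points, and the 1 trio past both criteria became 2 at 5 points. At P1 the 6 trios at 10 points became 3 with at least 50 reads, 3 with 1 trio per exon and 1 at 20 points. Between the wild-type libraries the 6 trios became 10 with no read minimum, 2 at 20 points and 17 at 5 points, and 2 when trios with an empty inclusion junction were left out, an alternative chosen after seeing the data. The 1 trio past both criteria there became 0 with the smaller inclusion junction, 0 with the downstream junction alone, 0 at 20 points and 4 at 5 points. For effects that differ between the stages, 0 trios became 2 with the smaller inclusion junction. Fewer trios per exon and other thresholds change these counts by construction, and for the other alternatives the cause was not tested. By these limits 5 of the 127 PSI differences moved, the *Dlg4* 66-nt exon at E18 to -8.76 on the downstream junction among them, and 5 of 28 gene levels did, with *Dlg4* at 1.44 and 1.32 after division by the median ratio over all genes, also chosen after seeing the data. The planned search of intron windows was not run. Depth limits the exons with few reads most, such as the *Dlg1* 97-nt exon.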
